A study of Saccharomyces cerevisiae with 6 samples.

Results

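The highest transcription signals that 2 assays of RNA polymerase II (RNAP II) shared were found on 157 array spots, out of 5642 spots measured in both assays and 6144 spots on the array. A spot was taken as high when its z-score reached 1.2 in genomic run-on (GRO) and in chromatin immunoprecipitation of the polymerase (RNAp ChIP) at all 3 time points, 0, 30 and 60 min. The z-score is the number of standard deviations by which a spot's mean log2 ratio lies above the mean of all measured spots in that assay and at that time. The 157 high spots are 2.78% of the measured spots. They were selected on these GRO and RNAp ChIP levels, so the levels are described below without a test. The other 502 spots lacked the values needed and could not be judged.

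All groups were Saccharomyces cerevisiae BY4741 cells carrying the plasmid pRS316. Cells were arrested in G1 with the mating pheromone alpha factor (0 min) and then washed free of it, and were sampled again 30 and 60 min after release. GRO and RNAp ChIP were each done 3 times at each time, which gave 6 groups of 3 replicates. A population was sampled at each time, and synchrony was not complete. The methods speak of 3 experiments and of assays done in triplicate. Replicates are separate hybridizations, and the sources do not say which experiment or culture each came from, so a p-value measures the spread between hybridizations, which may be partly technical.

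GRO and RNAp ChIP read different states of the polymerase. In GRO, cells are permeabilized and polymerases already engaged on a gene extend their transcripts with radioactive UTP. On genes that RNAP II transcribes, the labelled RNA thus reports active RNAP II. RNAp ChIP pulls down DNA crosslinked to the polymerase subunit Rpb3 and so reports all RNAP II on a gene, moving or paused. In growing budding yeast a small class of genes, among them those for ribosomal proteins and glycolytic enzymes, carries a large part of all RNAP II. The files name spots by array position only (array row R, array column C, then the position inside that block) and do not pair them with genes, so which genes the 157 spots carry was not determined. The filters also hold spots of rDNA, the template of RNA polymerase I, which the files do not mark. Run-on on an unnamed spot is therefore not assured to be that of RNAP II.

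GRO is given as the log2 ratio of run-on RNA to genomic DNA hybridized to the same filter, and RNAp ChIP as the log2 ratio of immunoprecipitated DNA (IP) to whole cell extract (WCE) of the same replicate. Every ratio was centred on the median spot of its hybridization, so a level of 0 is that of the median spot and no absolute rate was measured. The median intensity of a hybridization ranged from 35.7 to 616 units over the 34 hybridizations, and between 85 and 362 spots were listed at 0 and treated as missing. Replicates at one time correlated across spots with r from 0.741 to 0.850 in GRO (9 pairs) and from 0.670 to 0.868 in RNAp ChIP (9 pairs).

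Most spots that were high in run-on were also high in polymerase occupancy, and the converse held for a smaller share. GRO was high at all 3 times on 248 spots, and 63.3% of them were also high in RNAp ChIP, against 6.11% of all measured spots. RNAp ChIP was high at all 3 times on 345 spots, and 45.5% of them were also high in GRO, against 4.40% of all measured spots. This left 91 spots high in GRO only and 188 spots high in RNAp ChIP only. The latter had a median GRO level of 1.35, 1.39 and 1.38 on the log2 scale at 0, 30 and 60 min, above the median spot and below the threshold. The spots high in GRO only had a median RNAp ChIP level of 0.73, 0.80 and 0.78.

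**Figure D1:**
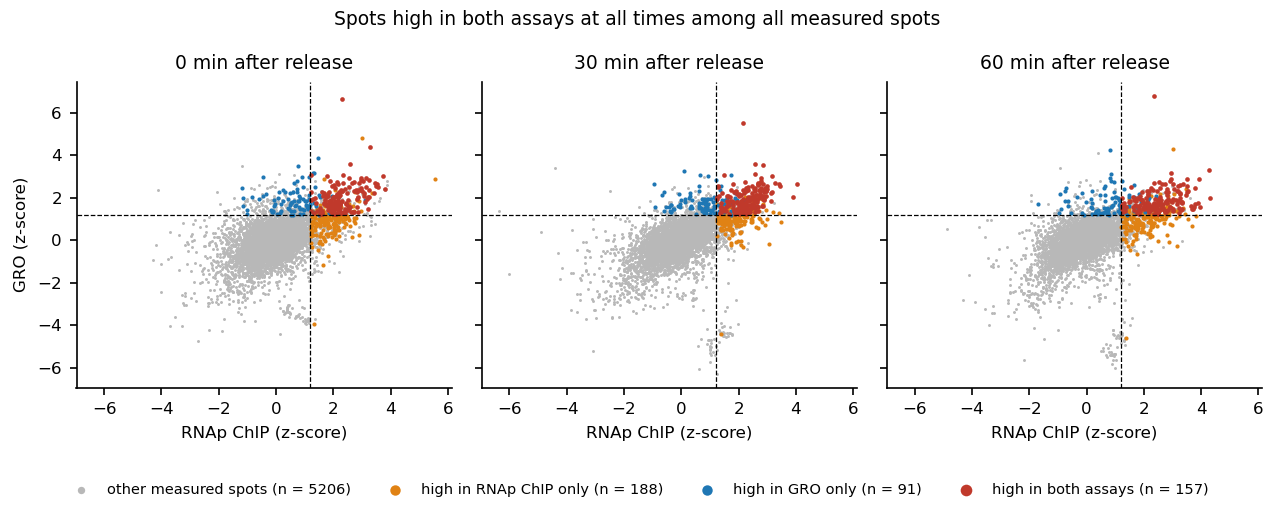
Each point is a spot, with its RNAp ChIP z-score on the x axis and its GRO z-score on the y axis, at 0, 30 and 60 min after release. The dashed lines mark the threshold of 1.2, and the 157 spots high in both assays (red) lie above both lines in all 3 panels.

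The 157 high spots stood about 4- to 6-fold above the median spot in both assays. In GRO their median log2 ratio was 2.54, 2.55 and 2.31 at 0, 30 and 60 min, which is 5.83-, 5.86- and 4.96-fold. In RNAp ChIP it was 2.05, 2.21 and 2.22, which is 4.13-, 4.61- and 4.67-fold. The spread among the high spots was larger in GRO, with an SD over spots between 0.755 and 0.891, than in RNAp ChIP, with an SD between 0.511 and 0.581. On the z scale the medians were 1.86, 1.91 and 1.73 in GRO and 2.18, 2.28 and 2.49 in RNAp ChIP.

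Replicates of a high spot were about as close to each other as those of any spot, except in RNAp ChIP at 0 min. The median SD over 3 replicates was 0.405, 0.276 and 0.307 in GRO at 0, 30 and 60 min, against 0.389, 0.337 and 0.314 over all measured spots. In RNAp ChIP it was 0.406, 0.226 and 0.237, against 0.307, 0.202 and 0.246. Replicate 1 of RNAp ChIP at 0 min stood lowest, with a median log2 ratio of 1.66 for the high spots, where replicates 2 and 3 gave 2.31 and 2.12. The medians of the other 15 hybridizations lay between 2.08 and 2.71.

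**Figure D2:**
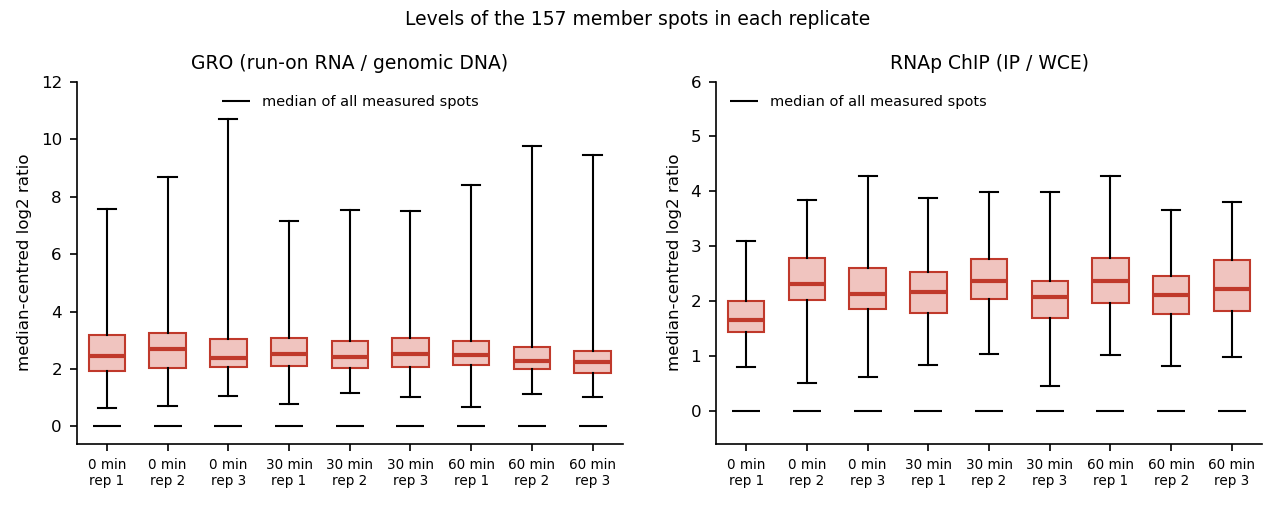
Median-centred log2 ratio of the 157 high spots in each of the 9 GRO and 9 RNAp ChIP hybridizations. Boxes span the quartiles with the median as a line, whiskers reach the lowest and highest spot, and the black bar near 0 is the median of all measured spots, below the lowest high spot in every hybridization.

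Single replicates of the high spots spread around the means that chose them, so the counts here only describe the chosen values. Of the high spots, 74 were at or above 1.2 in every single hybridization they had a value in, 33 were below it in 1 and 50 in 2 or more. In all, 93.1% of the single ratios of these spots were at or above 1.2, and the lowest single z-score was 0.403, in replicate 2 of RNAp ChIP at 0 min. The means of 13 spots rest on fewer than 3 GRO ratios at one time or more, and none of the 157 missed an RNAp ChIP ratio.

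Most spots were also high in a replicate that took no part in the choice. Spots were chosen again with the same threshold from the means of 2 replicates of each assay, and were then looked up in the replicate left out. Without replicate 1, 2 or 3 the rule chose 149, 149 and 156 spots, of which 131, 132 and 141 are among the 157. Of those with all 6 held-out values, 90 of 145, 99 of 146 and 98 of 151 were at or above 1.2 in every one, or 62.1%, 67.8% and 64.9%. Over all spots with values these shares were 2.26%, 2.43% and 2.29%. At least 5 of the 6 held-out values reached the threshold in 87.6%, 91.1% and 87.4% of the chosen spots. The held-out GRO values are not wholly separate from the choice, since filter 6 served replicate 3 at 0 min and replicate 2 at 60 min. Filter 1 served replicate 1 at 0 and 30 min, so these held-out values share a denominator with each other.

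**Figure D3:**
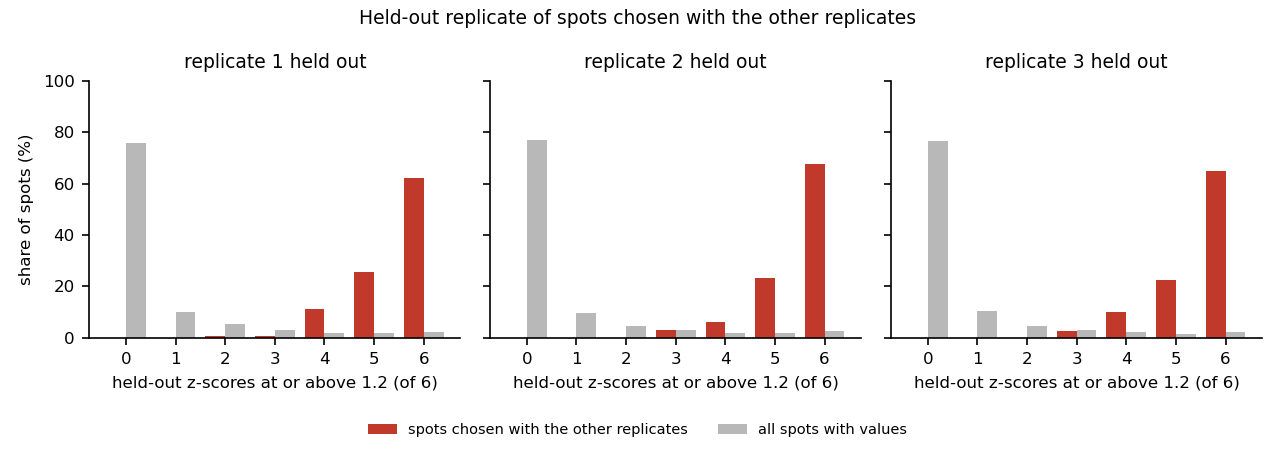
Share of spots (y axis, percent) by how many of their 6 held-out z-scores were at or above 1.2 (x axis), for spots chosen with the other replicates (red) and for all spots with values (grey). The red bars are highest at 6 of 6, at 62.1%, 67.8% and 64.9%, where the grey bars stand at 2.26%, 2.43% and 2.29%.

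Values close to the threshold show how sharp the choice was. The lowest of the 6 z-scores was under 1.3 in 33 of the 157 spots, and in 43 further spots it lay from 1.1 to under 1.2. Just inside the threshold, R7 - C6 : 12 had its lowest z-score, 1.203, in RNAp ChIP at 0 min, where its log2 ratios were 1.60, 1.23 and 0.63. R4 - C20 : 3 had its lowest, 1.209, in GRO at 0 min with log2 ratios of 2.01, 0.94 and 2.05. Just outside, R1 - C5 : 6 reached 1.196 in GRO at 0 min with log2 ratios of 1.75, 0.88 and 2.31. R10 - C18 : 5 reached 1.195 in RNAp ChIP at 30 min with log2 ratios of 1.05, 1.295 and 1.16. On each of these 4 spots the replicates spread far wider than the gap between the spots inside and those outside, so which side they fall on is within the replicate error.

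The raw intensities show that both numerators were bright on the high spots while the denominators were near or moderately above those of other spots. The median run-on intensity of the high spots was 4.23 to 5.46 times that of all spots over the 9 hybridizations, and the median IP intensity was 4.97 to 6.51 times. The genomic DNA intensity was 0.796 to 0.985 times, and the WCE intensity was 1.13 to 1.51 times. All of these intensities enter the ratios that chose the spots.

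Dim genomic DNA was slightly more common among the high spots than over all spots, dim WCE was not, and both were less common than among spots high in GRO only. Genomic DNA was among the dimmest 25% on 24.2% of the high spots, against 19.4% of all measured spots and 48.4% of those high in GRO only, and WCE on 17.2%, against 19.3% and 39.6%. Of the 157, 42 (26.8%) were among the dimmest 25% of spots in genomic DNA or in WCE, against 22.6% of all measured spots, 50.5% of the spots high in GRO only and 19.1% of those high in RNAp ChIP only. The median genomic DNA intensity of the high spots lay at percentile 50.1, against 26.1 for spots high in GRO only, 63.8 for spots high in RNAp ChIP only and 53.8 for all. Across the 157 spots the GRO ratio and the genomic DNA intensity correlated with r = -0.36, and across all measured spots with r = -0.46, as a description over spots that share hybridizations and the same denominator. The part of dim denominators in the choice of single spots was not tested. With the dimmest 25% of denominators left out before the choice, the rule gave 158 spots. This left out the 42 dim spots of the 157 beforehand, and the other 115 were all chosen again.

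The high spots were spread over the array. They fell in 131 of 384 blocks of 16 positions, and the most in a block was 3. The 1771 measured spots that shared a block with a high spot had median z-scores between -0.09 and 0.03 over the 6 combinations of assay and time, against -0.10 to 0.04 for all measured spots. The share of measured spots that were high ran from 1.97% to 3.84% over the 16 array rows, from 0.851% to 5.37% over the 24 columns and from 0.932% to 4.10% over the 16 positions in a block.

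The 4 spots with the highest mean of the 6 z-scores are described first. R5 - C10 : 3 stood far above all others in run-on. Its GRO log2 ratios were 7.58, 8.70 and 10.68 at 0 min, 7.16, 7.53 and 7.49 at 30 min, and 8.40, 9.76 and 9.44 at 60 min. In RNAp ChIP they were 1.83, 2.28 and 2.40 at 0 min, 2.25, 2.04 and 1.94 at 30 min, and 2.41, 1.90 and 1.96 at 60 min. Run-on was thus extreme on this spot in all 9 hybridizations, while occupancy was near the median of the 157 spots. Its genomic DNA intensity was between 3.60 and 23.6 units, and its WCE intensity was between 820 and 6159 units, at percentile 98.5 of all spots. The same probe therefore gave a dim signal with genomic DNA and one of the brightest with WCE, and how far its GRO ratio reflects its denominator was not tested. Its run-on intensity alone, 1517 to 8195 units, was also above the median of the high spots in each of the 9 hybridizations.

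R13 - C8 : 4 was high in both assays with genomic DNA at percentile 50.6 and WCE at percentile 80.3 of all spots. Its GRO log2 ratios were 4.28, 3.80 and 4.25 at 0 min, 3.98, 3.23 and 3.34 at 30 min, and 4.75, 4.09 and 4.54 at 60 min. The corresponding RNAp ChIP ratios were 3.10, 3.81 and 3.46 at 0 min, 2.89, 2.74 and 2.59 at 30 min, and 3.90, 3.58 and 3.81 at 60 min. Both assays were lowest at 30 min on this spot, and in RNAp ChIP the 3 replicates at 30 min did not overlap those at 0 or 60 min. None of its changes passed the threshold, the closest being RNAp ChIP from 30 to 60 min (1.03, limma SE 0.21, adjusted p = 0.051).

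The other 2 of the 4 also had dim genomic DNA. R5 - C5 : 12 had GRO log2 ratios of 4.76, 7.50 and 5.60 at 0 min, 4.86, 1.87 and 4.44 at 30 min, and 2.98 and 4.80 at 60 min, where replicate 3 had no value. Its genomic DNA intensity ran from 0.668 to 36.6 units, and its run-on ratios had an SD of 1.40, 1.62 and 1.29. The RNAp ChIP ratios were closer together, at 2.51, 3.08 and 3.60 at 0 min, 2.89, 2.76 and 2.35 at 30 min, and 2.69, 2.36 and 2.84 at 60 min. R7 - C22 : 13 had GRO log2 ratios of 3.69, 4.04 and 3.71 at 0 min, 3.59 and 3.22 at 30 min with replicate 3 missing, and 4.76, 3.33 and 3.55 at 60 min. In RNAp ChIP they were 2.03, 3.83 and 3.15 at 0 min, 3.14, 3.53 and 3.28 at 30 min, and 3.72, 3.43 and 3.28 at 60 min. Between times the values of these 2 spots overlapped in each assay, except for the GRO ratios of R7 - C22 : 13 at 0 and 30 min, whose change did not pass (-0.40, limma SE 0.43, adjusted p = 0.63).

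Within the 157 spots, run-on and polymerase occupancy were only loosely related. Across them GRO and RNAp ChIP levels correlated with r = 0.344, 0.324 and 0.211 at 0, 30 and 60 min, and without R5 - C10 : 3 with r = 0.413, 0.388 and 0.309. Over all measured spots r was 0.510, 0.530 and 0.515. The choice cuts off the low end of both assays, which narrows the range, so the values are given only as a description. Each assay kept its order over time more closely, with r between 0.714 and 0.760 for pairs of times in GRO and between 0.608 and 0.809 in RNAp ChIP. Without R5 - C10 : 3 the range in GRO was 0.601 to 0.637. Spots are not independent replicates, as they share hybridizations.

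On most of the high spots the z-score was higher in RNAp ChIP than in GRO. The mean z-score over the 3 times was lower in GRO than in RNAp ChIP on 124 of 157 spots, on 93 of them at every time, and higher on 33, on 15 of them at every time. The median difference of GRO minus RNAp ChIP was -0.51. The shape of the z scale moves with this difference: the 99th percentile of all spots lay at 2.49, 2.32 and 2.29 in GRO and at 2.87, 2.67 and 3.02 in RNAp ChIP at 0, 30 and 60 min, and its part in the difference was not tested. Equal z-scores in the assays are therefore not equal ranks. R5 - C10 : 3 had the highest difference, 4.05, and the next highest was 0.88. R14 - C23 : 16 had the lowest, -1.72. In GRO its log2 ratios were 3.25, 2.05 and 2.01 at 0 min, 4.46, 3.39 and 2.68 at 30 min, and 2.46, 2.13 and 1.61 at 60 min. In RNAp ChIP the ratios were 2.81, 3.10 and 2.80 at 0 min, 3.85, 3.80 and 3.99 at 30 min, and 3.65, 3.17 and 3.64 at 60 min. Its run-on replicates at 0 min overlapped those at 30 and at 60 min, and those at 30 min were all above those at 60 min. Its occupancy was lower at 0 min in all 3 replicates than at 30 or 60 min. From 0 to 30 min the change was 1.08 in GRO (limma SE 0.51, adjusted p = 0.25) and 0.98 in RNAp ChIP (limma SE 0.19, adjusted p = 0.019). With the replicate number as a block the RNAp ChIP rise missed the threshold (limma adjusted p = 0.060). The changes in the 2 assays were not shown to differ (difference in z -0.23, limma SE 0.41, adjusted p = 0.81). Both denominators of R14 - C23 : 16 were among the dimmest 25%.

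The next question was whether these spots changed as cells left G1 arrest. Changes between times were tested with limma over all spots of an assay, with p-values adjusted over all of them and a threshold of 0.05. The choice holds each spot above a fixed level at every time, which limits how far a high spot can fall, and the changes come from the same measurements as the levels. In these populations a change per cell and a change in the share of cells in a phase cannot be told apart.

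In GRO, from 0 to 30 min, 5 of the 157 spots changed (3.18%), against 5.28% of the 5699 spots tested. Of these 2 rose, against 1.82% of all spots, and 3 fell, against 3.46%. The median change of the 157 spots was -0.05 on the log2 scale, against -0.02 over all spots. With the replicate number as a block, 1 high spot was called from 0 to 30 min. With the filter as a random block, 27 of the 157 were called from 0 to 30 min, a lower share than the 26.8% of all spots. From 0 to 60 min 29 of the 157 were called, a higher share than 13.6%. From 30 to 60 min 3 of the 157 were called, a lower share than 3.91%. Leaving out a single hybridization gave 4 calls from 0 to 30 min without replicate 1 at 60 min and 3 calls or fewer without any of the other 8, down to 0 without replicate 2 at 0 min. From 0 to 60 min no high spot passed, against 2.39% of all spots, and 31 (19.7%) had an unadjusted p under 0.05, against 16.7%. Without replicate 3 at 0 min 5 high spots were called in that comparison, a count given without that over all spots. From 30 to 60 min none passed, against 0.491% of all spots, and 17 (10.8%) had an unadjusted p under 0.05, against 13.7%. The median changes were -0.09 in both, against -0.03 over all spots, and z-scores within each hybridization turned the medians from 0 to 30 and from 0 to 60 min positive (0.02 and 0.01), as did quantile normalization (0.21 and 0.20).

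The 2 spots named for a fall lost run-on signal from 0 to 30 min and stayed among the high spots. R1 - C8 : 13 had GRO log2 ratios of 2.95, 3.29 and 3.31 at 0 min, 1.83, 1.68 and 2.26 at 30 min, and 2.47, 2.11 and 2.38 at 60 min. Its replicates at 0 min did not overlap those at 30 min. The change from 0 to 30 min was -1.26 (limma SE 0.24, adjusted p = 0.024). Its RNAp ChIP log2 ratios were 2.07, 3.29 and 2.78 at 0 min, 1.91, 2.79 and 1.68 at 30 min, and 3.49, 3.66 and 3.11 at 60 min. The RNAp ChIP change from 0 to 30 min, -0.59, did not pass (limma SE 0.37, adjusted p = 0.40), and the changes in the 2 assays were not shown to differ (difference in z -0.30, limma SE 0.41, adjusted p = 0.75).

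R6 - C18 : 9 had GRO log2 ratios of 3.55, 3.03 and 2.80 at 0 min, 1.73, 1.65 and 2.10 at 30 min, and 2.38, 2.49 and 2.34 at 60 min. Again the replicates at 0 and 30 min did not overlap, and the change was -1.303 (limma SE 0.25, adjusted p = 0.025). Its occupancy, as RNAp ChIP log2 ratios, was 1.79, 2.41 and 2.21 at 0 min, 1.86, 2.10 and 2.02 at 30 min, and 2.36, 2.15 and 2.30 at 60 min. They overlapped between 0 and 30 min, with a change of -0.15 (limma SE 0.19, adjusted p = 0.70), and the difference between the assays did not pass (-0.75 in z, limma SE 0.22, adjusted p = 0.10). With the replicate block the GRO falls of R1 - C8 : 13 and R6 - C18 : 9 missed the threshold (adjusted p = 0.052 and 0.064 in limma). Both falls also missed it without replicate 2 at 0 min, replicate 1 at 30 min or replicate 2 at 30 min, that of R1 - C8 : 13 also without replicate 3 at 0 min and that of R6 - C18 : 9 also without replicate 1 at 0 min. Their adjusted p then lay between 0.061 and 0.090. Both missed it with quantile normalization (limma adjusted p = 0.070 and 0.058) and in a fit of 0 and 30 min alone (0.073 and 0.084), and that of R6 - C18 : 9 with the genomic DNA signal averaged over all filters as denominator, called the mean denominator here (0.23).

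In RNAp ChIP, from 0 to 30 min, 3 of the 157 spots changed, all of them upwards (1.91%), against 5.25% of the 5829 spots tested in either direction and 1.73% that rose. From 0 to 60 min 1 rose (0.637%), against 2.35% changed and 0.875% risen over all spots. From 30 to 60 min 3 changed (1.91%), against 1.73% of all spots: 1 of the 157 rose, against 1.25%, and 2 of the 157 fell, against 0.48%. The median change of the 157 spots was 0.09, 0.14 and 0.06 for these comparisons, against 0.02, 0.03 and 0.02 over all spots. These medians moved with the scaling. With the mean denominator, WCE averaged over its 9 hybridizations, they were 0.21, 0.05 and -0.08, and on z-scores 0.15, 0.33 and 0.17, against 0.03, -0.0049 and -0.03 over all spots. Without replicate 2 at 0 min the counts were 10, 3 and 6, and without any 1 replicate at 30 or 60 min the count from 30 to 60 min fell to 1 or 0. These counts are given without those over all spots and are not read as particular to the high spots. Without replicate 1 at 0 min, the lowest hybridization, the median changes from 0 min turned to -0.12 and -0.06, without replicate 2 at 30 min the first was -0.02, and without replicate 3 at 30 min the median from 30 to 60 min was -0.03.

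The 2 spots named for a rise gained RNAp ChIP signal at 30 min and lost it again by 60 min. R11 - C5 : 11 had RNAp ChIP log2 ratios of 1.43, 1.52 and 1.66 at 0 min, 2.73, 2.80 and 2.42 at 30 min, and 1.44, 1.70 and 1.46 at 60 min. Every replicate at 30 min was above every replicate at 0 and 60 min. The change was 1.11 from 0 to 30 min (limma SE 0.17, adjusted p = 0.0072) and -1.12 from 30 to 60 min (adjusted p = 0.017). In GRO its log2 ratios were 2.71, 2.69 and 3.12 at 0 min, 3.12, 2.94 and 3.26 at 30 min, and 2.75, 2.04 and 1.93 at 60 min. Run-on overlapped between 0 and 30 min (change 0.27, limma SE 0.27, adjusted p = 0.60). From 30 to 60 min its run-on replicates did not overlap, and the change of -0.87 did not pass (limma SE 0.27, adjusted p = 0.24). The changes in the 2 assays from 30 to 60 min were not shown to differ (difference in z 0.46, limma SE 0.27, adjusted p = 0.56).

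R15 - C23 : 3 had RNAp ChIP log2 ratios of 1.28, 1.38 and 1.03 at 0 min, 2.45, 2.56 and 2.30 at 30 min, and 1.495, 1.06 and 0.98 at 60 min. Here too every replicate at 30 min was above every replicate at the other times. The change was 1.21 from 0 to 30 min (limma SE 0.19, adjusted p = 0.0086) and -1.26 from 30 to 60 min (adjusted p = 0.017). In GRO its log2 ratios were 2.26, 3.29 and 2.43 at 0 min, 2.36, 3.07 and 2.92 at 30 min, and 2.88, 1.68 and 2.18 at 60 min. They overlapped between all times (change from 0 to 30 min 0.12, limma SE 0.39, adjusted p = 0.89). The change in GRO was not shown to differ from that in RNAp ChIP on R11 - C5 : 11 or on R15 - C23 : 3 (-0.91 and -1.10 in z from 0 to 30 min, adjusted p = 0.11 and 0.12 in limma). With the mean denominator neither rise passed (1.64 and 0.96, limma adjusted p = 0.051 and 0.66), and no high spot was called in any RNAp ChIP comparison. With the replicate block the fall of R11 - C5 : 11 from 30 to 60 min missed the threshold (limma adjusted p = 0.063), while that of R15 - C23 : 3 passed (0.042). The titles of the RNAp ChIP samples exchange 30 and 60 min. Under the titles both rises would lie between 0 and 60 min. The falls would become rises from 30 to 60 min, so no gain and loss would be seen.

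**Figure D4:**
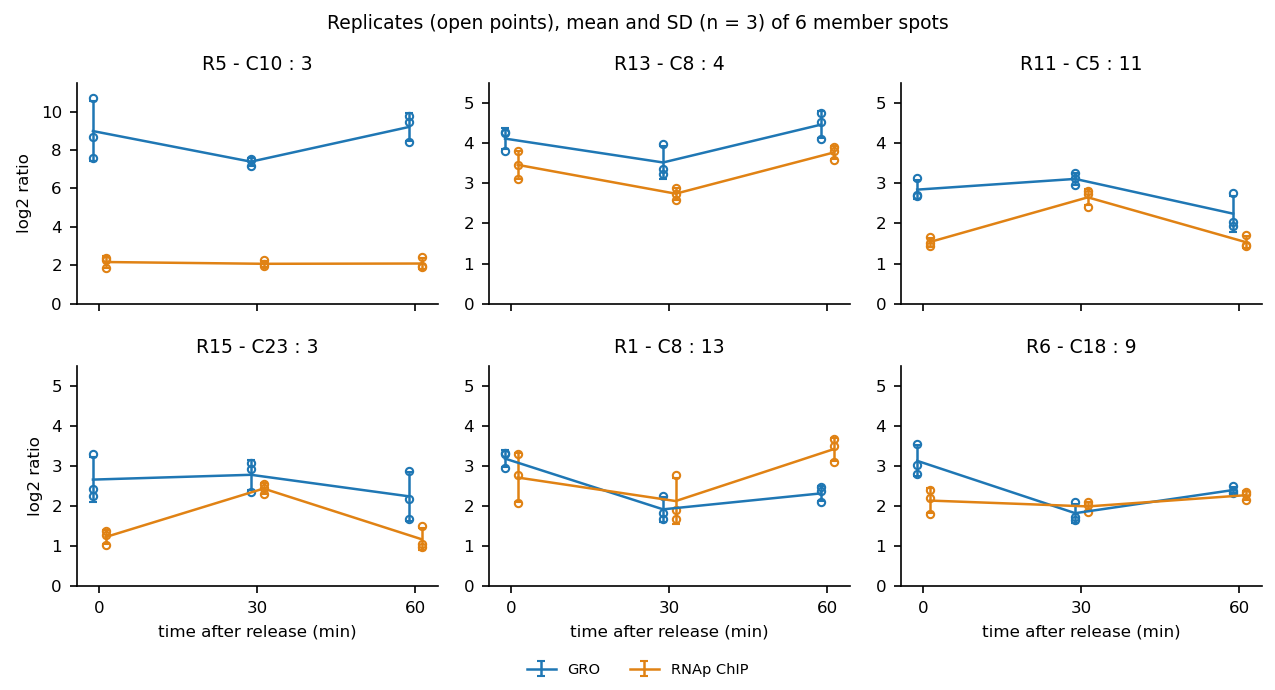
Median-centred log2 ratio (y axis) at 0, 30 and 60 min (x axis) in GRO (blue) and RNAp ChIP (orange) for 6 of the high spots; open points are replicates, lines join the means and bars are the SD over 3 replicates. R11 - C5 : 11 and R15 - C23 : 3 have their highest RNAp ChIP values at 30 min, and R1 - C8 : 13 and R6 - C18 : 9 have lower GRO values at 30 min than at 0 min. The axis of R5 - C10 : 3 reaches higher than the others.

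The time of the highest level differed between the assays. RNAp ChIP was highest at 60 min on 78 of the 157 spots (49.7%), at 30 min on 49 and at 0 min on 30, while 31.8% of all measured spots were highest at 60 min. On z-scores the count at 60 min was 98 (62.4%), against 29.2% of all spots. Spots high in RNAp ChIP only shared this, with 57.4% highest at 60 min on z-scores. The SD of RNAp ChIP over all spots was 0.913, 0.953 and 0.864 at 0, 30 and 60 min, so a given log2 ratio was a higher z-score at 60 min. GRO was highest at 0 min on 66 spots, at 30 min on 53 and at 60 min on 38 (24.2%, against 27.4% of all spots). Under the titles of the samples the RNAp ChIP counts at 30 and 60 min would be exchanged.

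Run-on and occupancy were set against each other in one limma fit on z-scores within each hybridization, as the difference between the change in GRO and that in RNAp ChIP. From 0 to 30 min no high spot passed, against 1.52% of the 5642 spots tested, and 22 (14.01%) had an unadjusted p under 0.05, against 17.1%. From 0 to 60 min 3 passed (1.91%), against 0.727% of all spots, and in all 3 the GRO change was the lower, against 0.248% of all spots. From 30 to 60 min none passed, against 0.0532%, and 20 (12.7%) had an unadjusted p under 0.05, against 10.9%. Without replicate 3 of GRO at 0 min or replicate 2 of RNAp ChIP at 0 min, 3 high spots passed from 0 to 30 min, and without replicate 3 of RNAp ChIP at 30 min 1 passed. These counts without a hybridization are given without those over all spots.

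From 0 to 60 min the GRO change was lower than the RNAp ChIP change on 122 of the 157 spots, with a median difference of -0.37 in z against 0.02 over all spots. On median-centred log2 ratios it was lower on 110 spots, with a median of -0.25 against -0.05, and no spot passed among the 157. The median from 30 to 60 min was -0.22 in z against -0.01, and that from 0 to 30 min was -0.11 against 0.01. The 3 calls from 0 to 60 min fell to 1 or 0 without replicate 1 or 2 of GRO at 0 min, without any 1 of the 3 replicates of GRO at 60 min, without replicate 1 or 3 of RNAp ChIP at 0 min and without replicate 2 or 3 of RNAp ChIP at 60 min. The median difference from 0 to 60 min kept its sign without each hybridization in turn, between -0.45 and -0.26. All of these values follow the sample descriptions. Under the titles of the RNAp ChIP samples, which exchange 30 and 60 min, the median from 30 to 60 min turned positive. The counts called also changed, as given in the last section. The share of all measured spots with a lower GRO change was not counted. From 0 to 60 min the 99th percentile of the z-scores of all spots went from 2.49 to 2.29 in GRO. In RNAp ChIP it went from 2.87 to 3.02. The part of this shift of the z scale in the difference was not tested.

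**Figure D5:**
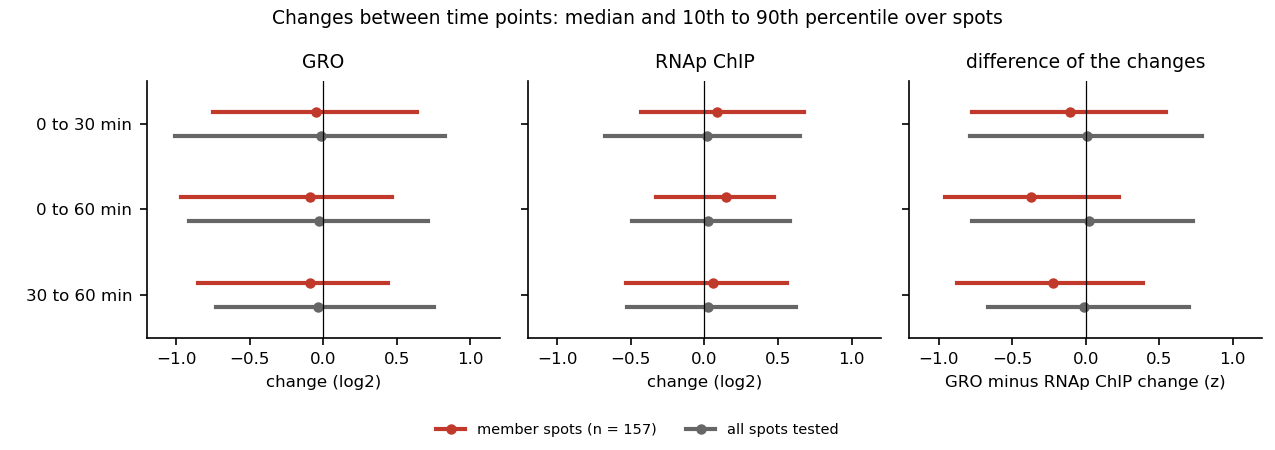
Median (point) and range from the 10th to the 90th percentile over spots (line) of the change between times in GRO and RNAp ChIP (x axis, log2) and of the GRO change minus the RNAp ChIP change (x axis, z-score), for the 157 high spots (red) and all spots tested (grey). The red and grey points lie close together except in the difference from 0 to 60 min, at -0.37 and 0.02, and from 30 to 60 min, at -0.22 and -0.01.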

How the data were processed

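For each spot and hybridization the authors deposited an intensity, the density of a radioactive nylon filter with whole-ORF probes after subtraction of background, with no normalization across hybridizations. DNA from IP and WCE went through a PCR amplification before it was labelled, so fragment proportions may have shifted. There were 34 hybridizations, 9 with run-on RNA, 7 with genomic DNA (1 per filter), 9 with IP and 9 with WCE. The study's filter against local background could not be used, since no background is given, and an intensity of 0 was treated as missing.

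Log2 ratios were centred on the median of the spots with at least 2 of 3 replicates at every time (5699 spots in GRO, 5829 in RNAp ChIP, 5642 in both). Means of 2 or 3 replicates were turned into z-scores over the 5642 spots, and spots at or above 1.2 in all 6 were kept. The members and the results to describe were chosen with earlier results of these data known. Groups follow the sample descriptions. The titles of the RNAp ChIP samples of 30 and 60 min disagree with these, and the exchanged assignment was added as an alternative after the data were seen. For GRO at 30 min the description counts 2 replicates where 3 hybridizations were deposited, and all 3 were used.

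Changes were tested by lmFit and eBayes of limma (version 3.58.1, R 4.3.3), in 1 fit of the 9 ratios of an assay or of all 18 z-scores for the difference between assays, with Benjamini-Hochberg adjustment over all spots and a threshold of 0.05. Other steps used Python 3.11.15, numpy 2.4.6 and pandas 2.3.3. In simulated data for 0 to 30 min, 200 spots were given a known log2 change. A change of 2 was called on 75.0% of them in GRO and on 88.0% in RNAp ChIP, a change of 1 on 3.5% and 45.0%.

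GRO replicates with the same number at 0 and 30 min shared part of their deviation from the group means (r = 0.54 on the shared filter 1, 0.13 and 0.17), which met the rule of every r above 0.1 for treating the numbers as pairs. No source says what a shared number means, so the tests given first used no replicate block, although this comparison met the rule. Results with the replicate block are given beside them. No other comparison met the rule. Spots named are the 4 with the highest mean z-score, those with the highest and lowest difference between assays, the 2 that rose and the 2 that fell with the smallest adjusted p (each spot once), and the 2 nearest the threshold on each side. Gene lists could not be applied to unnamed spots. Precision is limited by the number of arrays.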

Additional observations from a re-analysis of the deposited data

Results flagged for a closer look

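On 3 of the 157 high spots the change from 0 to 60 min differed between the assays by a limma test of the difference itself, with a lower change in GRO than in RNAp ChIP in each (adjusted over all 5642 spots, n = 3 replicates per group). On R2 - C1 : 3 the difference was -1.72 in z (SE 0.34, limma adjusted p = 0.028). Its GRO log2 ratios were 2.19, 2.66 and 1.85 at 0 min and 2.50, 1.41 and 1.195 at 60 min, which overlapped. Its RNAp ChIP log2 ratios were 1.38, 2.27 and 1.36 at 0 min and 3.07, 2.63 and 2.88 at 60 min, which did not.

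On R4 - C7 : 10 the difference was -2.07 in z (SE 0.42, limma adjusted p = 0.030). Its GRO log2 ratios were 2.75, 2.41 and 2.51 at 0 min and 1.96, 1.77 and 2.14 at 60 min, all lower at 60 min. In RNAp ChIP they were 1.66, 2.71 and 1.03 at 0 min and 3.27, 3.24 and 3.28 at 60 min, all higher at 60 min. The 3 RNAp ChIP replicates at 0 min had an SD of 0.851. The genomic DNA of this spot was among the dimmest 25%, at percentile 19.6 of all spots. The same genomic DNA value, 9.34 units, served GRO replicate 3 at 0 min and replicate 2 at 60 min.

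On R2 - C10 : 7 the difference was -1.301 in z (SE 0.27, limma adjusted p = 0.038). In GRO its log2 ratios were 3.12, 3.62 and 3.61 at 0 min and 2.87, 2.66 and 2.43 at 60 min, which did not overlap. In RNAp ChIP they were 2.84, 3.46 and 3.43 at 0 min and 4.28, 3.62 and 3.45 at 60 min. No call of these 3 held on log2 ratios (adjusted p = 0.12, 0.055 and 0.14 in limma) or with the mean denominator (0.38, 0.91 and 0.75). With the replicate block R2 - C10 : 7 missed the threshold (limma adjusted p = 0.071), R2 - C1 : 3 and R4 - C7 : 10 passed (0.044 and 0.045), and R1 - C8 : 13 passed as well (-1.54 in z, adjusted p = 0.026, against 0.10 without the block). None of the separate changes in GRO or RNAp ChIP from 0 to 60 min passed its own threshold on these spots.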

How the results depend on the processing

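The high spots numbered 149 to 156 without 1 of the replicates, between 150 and 170 with the mean denominator, quantile normalization, 3 replicates above 0 or without dim or bright denominators, 235 with a threshold of 1.0 and 80 with a threshold of 1.5. Spots without gene names, 3 hybridizations per group and weak power for changes of 1 on the log2 scale in GRO limit what can be said of change. The causes of the differences below were not tested. Counts given without the share or count over all spots, here or above, are not read as particular to the high spots.

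High spots called from 0 to 30 min, 0 to 60 min and 30 to 60 min were 5, 0 and 0 in GRO. They were 1, 0 and 0 with the replicate block, 3, 1 and 0 with quantile normalization, 2, 2 and 0 with the mean denominator, and 27, 29 and 3 with filter as a random block. Without dim denominators 5 were called from 0 to 60 min and 1 from 30 to 60 min, and with 2 time points in the fit 0 from 0 to 30 min. Quantile normalization moved the median change of the high spots from 0 min to 0.21 and 0.20. Over all 5699 spots 301, 136 and 28 were called. Quantile normalization called 239, 90 and 33 of all spots, the mean denominator 244, 115 and 38, and filter as a random block 1527, 773 and 223. In RNAp ChIP the counts were 3, 1 and 3. They were 5 and 4 from 0 min on z-scores, 9, 2 and 6 with quantile normalization, 0, 0 and 0 with the mean denominator, 1 from 30 to 60 min with the replicate block, 7 and 6 from 0 to 30 and 30 to 60 min without dim denominators, 0 and 5 from 0 to 60 and 30 to 60 min with 2 time points, and 1 and 3 from 0 min with the times exchanged. Over all 5829 spots 306, 137 and 101 were called in RNAp ChIP. On z-scores 307 and 155 of all spots were called from 0 min. Quantile normalization called 310, 159 and 139 of all spots, and the mean denominator 71, 67 and 14. For the difference between assays the counts of high spots were 0, 3 and 0, against 86, 41 and 3 of all 5642 spots. From 0 to 60 min they were 0 on log2 ratios, against 24 of all spots, 0 with the mean denominator, against 22, and 1 with 2 time points. Without dim denominators 1 high spot was called from 0 to 30 min. With the times exchanged the counts were 7, 9 and 14, with a median of 0.16 from 30 to 60 min. The counts over all spots with the times exchanged are not given, so these are not read as particular to the high spots. The exchange also gave R11 - C5 : 11 and R15 - C23 : 3 changes of -0.0029 and -0.054 from 0 to 30 min. The replicate block changed no other count by over 1.5 times, but the 3 calls of the difference from 0 to 60 min were then not the same 3 spots.

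Leaving out 1 hybridization gave 0 to 4, 0 to 5 and 0 calls in GRO, 2 to 10, 1 to 3 and 0 to 6 in RNAp ChIP, and 0 to 3, 0 to 4 and 0 for the difference. The medians ran from -0.10 to -0.02, -0.21 to -0.03 and -0.17 to -0.01 in GRO, from -0.12 to 0.24, -0.06 to 0.31 and -0.03 to 0.16 in RNAp ChIP, and from -0.19 to -0.03, -0.45 to -0.26 and -0.34 to -0.13 for the difference.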
